A study of Mnemiopsis leidyi with 40 samples.

Results

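A set of 64 gene models of the ctenophore (comb jelly) Mnemiopsis leidyi was described. Their transcripts were present at the start of development and had their lowest level, at 1/4 or less of the start, between 4 and 9 h. At 11 to 13 h or at 20 h they were back at 1/2 to 2 times their starting level. The median was 0.632 times, and 7 of the 64 exceeded the start. The gene models were selected by their levels in 8 blocks of developmental time, namely 0 to 1, 2 to 3, 4 to 5, 5.5 to 6.5, 7 to 7.5, 8 to 9, 11 to 13 and 20 h. A block level is the summed read count of a gene over the embryos of the block, divided by their summed count over all gene models, in CPM (counts scaled to a common library total). A member had at least 20 CPM at 0 to 1 h, less than 2 times that level at 2 to 3 h, its lowest block between 4 and 9 h at no more than 1/4 of the 0 to 1 h level, and a larger of its 2 late blocks (11 to 13 h and 20 h) between 1/2 and 2 times the 0 to 1 h level. Of 16548 gene models, 3941 reached 20 CPM at 0 to 1 h, and the 64 members were 1.62% of these. The study sampled 40 single, untreated embryos by CEL-Seq, 2 at each of 20 ages from 0 to 20 h, and all groups compared here are ages of this one time course. CEL-Seq primes on the poly(A) tail, tags the RNA of each embryo with a barcode and reads the 3′ ends of transcripts. The labels give no strain, spawning or temperature, and each embryo is whole, so that every level is an average over all its cells.

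Early animal embryos run on messenger RNA that the mother loaded into the egg. In the maternal-to-zygotic transition, much of this RNA is cleared and the embryo's own genome is switched on. A gene whose maternal RNA is cleared can later be transcribed again from the embryo's genome, which gives a time course with a dip. Maternal mRNA can also leave and re-enter a poly(A)-primed library without being destroyed, since egg and embryo lengthen and shorten poly(A) tails. CPM values are shares of a library. Fewer cells with the transcript, less of it per cell, a shorter tail and growth of the rest of the RNA pool therefore cannot be told apart in these data. RNA of maternal and of embryonic origin was not distinguished, so "maternal" is read here only as present at 0 to 1 h.

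The gene models carry IDs of the form ML and a number. None could be paired with a gene name in the RefSeq table used here (0 of 16548), so that members are given by ID, with no function. In 36 of the 40 embryos the reads in gene models numbered between 977034 and 4511124. The others held 580587 (4 h replicate 1), 343202 (8.5 h replicate 2), 264033 (5.5 h replicate 2) and 3808 reads (10 h replicate 1). In the last of these, 3 reads equal 788 CPM, and it was left out of every per-embryo value below. Replicate 1 of each age was in the sequencing library pool with index 6, and replicate 2 in the pool with index 12. The labels do not say whether embryos of the same age came from the same spawning.

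The levels in this and the following paragraphs are those that selected the members, and are given as a description with no test. Together the 64 members made up 7072 CPM at 0 to 1 h, 4281 at 2 to 3 h, 3880 at 4 to 5 h, 2991 at 5.5 to 6.5 h, 1303 at 7 to 7.5 h, 2192 at 8 to 9 h, 2593 at 11 to 13 h and 4841 at 20 h. The sum was thus smallest at 7 to 7.5 h. That block was the lowest of 45 of the 64 members (70.3%), 8 to 9 h of 13, 5.5 to 6.5 h of 5 and 4 to 5 h of 1. Of the reads of 7 to 7.5 h, 49.4% came from 1 embryo, 7 h replicate 2. Under 1/4 of the start in that block were 51 members by summed counts and 45 by the mean of single-embryo CPM. Relative to 0 to 1 h, the median log2 level of the members was -0.60 at 2 to 3 h, -0.88 at 4 to 5 h, -1.47 at 5.5 to 6.5 h, -2.25 at 7 to 7.5 h, -1.68 at 8 to 9 h, -1.50 at 11 to 13 h and -0.67 at 20 h. The 3941 genes of at least 20 CPM were lower as well on this scale, from -0.09 at 2 to 3 h over -0.63 at 7 to 7.5 h to -0.93 at 20 h. Between 7 to 7.5 h and 20 h the median of the members was therefore higher at the end and that of all 3941 genes lower, which the rule for members fixes in part.

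**Figure D1:**
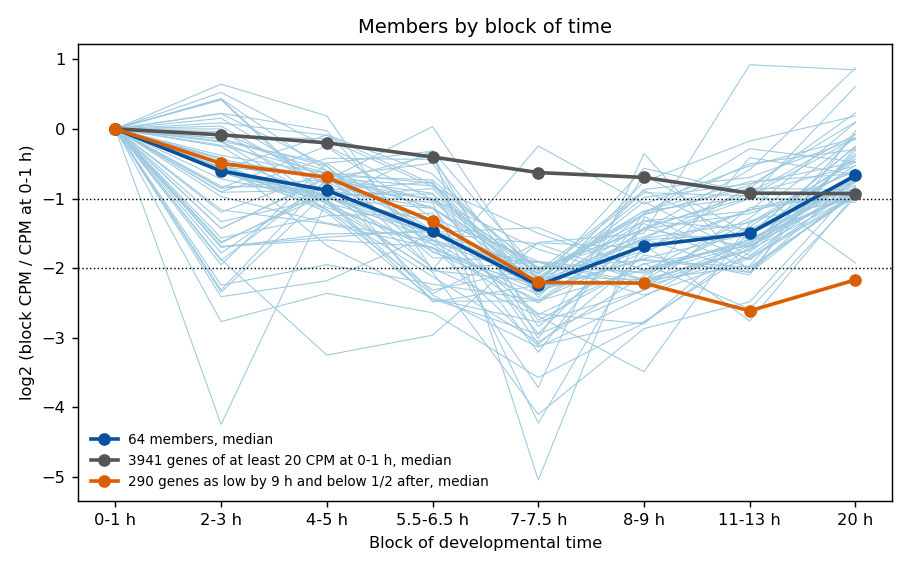
Level of each gene group in 8 blocks of developmental time, as log2 of block CPM over CPM at 0 to 1 h, with thin lines for the 64 members, thick lines for medians (the orange one for the 290 genes as low by 9 h that stayed under 1/2) and dotted lines at 1/2 and 1/4. The members' median is lowest at 7 to 7.5 h, at -2.25, and stands at -0.67 at 20 h, while the median of the 3941 genes of at least 20 CPM stands at -0.93 there.

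At 0 to 1 h the members' levels ran from 20.5 to 1210 CPM, with a median of 59.6. Their lowest block stood at 0.0303 to 0.25 times the 0 to 1 h level (median 0.201), and their larger late block at 0.50 to 1.89 times it (median 0.632). In the lowest block 18 reads supported the level of the thinnest member, the median was 82.5 reads, and 11 members rested on fewer than 50. In 60 of the 64 members every embryo of 0 to 1 h lay above every embryo of the lowest block, where 44.4% of the 3941 genes of at least 20 CPM had that order between 0 to 1 h and their lowest middle block. In 49 members every embryo of the higher late block lay above every embryo of the lowest block, beside 18.3% of the 3941 genes. Both held in 48 members. The rule used these values, so nothing is read from those counts beyond how far single embryos overlap.

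The most abundant member was ML040518a. Its 4 embryos of 0 to 1 h held 1553, 590, 1611 and 1163 CPM, those of 7 to 7.5 h 84.5, 58.1, 115 and 57.3 CPM, and those of 20 h 1014 and 353 CPM. The lowest block lay at 0.0583 and the 20 h block at 0.565 times the 0 to 1 h level, and no embryo of 7 to 7.5 h reached the level of any embryo of 0, 1 or 20 h. ML040519a, the gene model with the next number, also belonged to the set, and it was the only such pair among the members. ML040519a had 232, 324, 285 and 256 CPM at 0 to 1 h, 80.2, 44.6, 62.7 and 50.3 CPM at 7 to 7.5 h, and 134 and 154 CPM at 20 h. The embryos of these 3 blocks did not overlap. Its single embryos of 8 to 9 h ranged from 49.2 to 452 CPM, the highest being the shallow 8.5 h replicate 2.

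Of the other members high at the start, ML10423a stood at 579 ± 93.4 CPM (SD, n = 4) at 0 to 1 h, 145 ± 24.8 CPM (n = 4) at 7 to 7.5 h and 354 ± 21.8 CPM (n = 2) at 20 h. ML020025a stood at 420 ± 51.6 CPM (n = 4) at 0 to 1 h and 95.3 ± 27.3 CPM (n = 4) at 7 to 7.5 h, with 349 and 354 CPM in the 2 embryos of 20 h. Its course was gradual on both sides, with block levels of 272, 216, 152 and 84.5 CPM from 2 to 3 h to 7 to 7.5 h and of 115, 147 and 352 CPM in the last 3 blocks. ML065748a departed from such an order only at 4 to 5 h, where its 201 CPM lay just above its 196 CPM of 2 to 3 h. It went from 370 ± 26.3 CPM (n = 4) at 0 to 1 h to 79.4 ± 14.9 CPM (n = 4) at 7 to 7.5 h and 256 ± 57.7 CPM (n = 2) at 20 h. ML047950a was above its start at 2 to 3 h, with block levels of 239 CPM at 0 to 1 h and 319 CPM at 2 to 3 h. It then stood at 27.3 CPM at 7 to 7.5 h and at 124 CPM at 20 h.

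A group of 21 members had such an ordered course, each block lower than the one before until the lowest and each later block higher. In all, 28 were ordered in this way down to the lowest block. The rule favours such an order and no share among all genes is given, so these counts only describe the members. At 2 to 3 h, 21 members were already under 1/2 of their 0 to 1 h level, and 10 were above it. ML32311a was among the early ones. Its 4 embryos of 0 to 1 h held 147, 176, 181 and 174 CPM, and its 4 embryos of 2 to 3 h 20.5, 44.9, 13.4 and 32.9 CPM. It was lowest at 7 to 7.5 h, with 15.2, 9.31, 8.75 and 30.5 CPM, and had 94.4 and 93.7 CPM at 20 h. Its level was thus low already by 2 to 3 h, and no later block before 20 h went above 52.9 CPM.

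**Figure D2:**
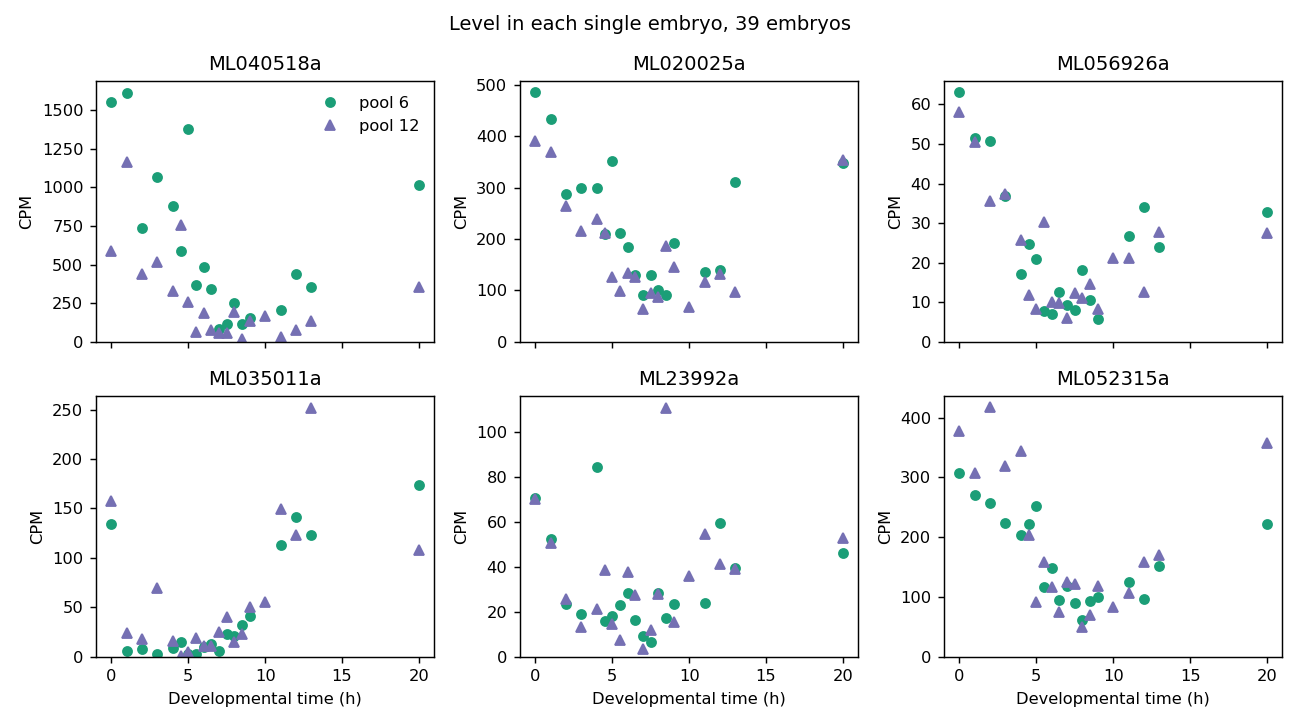
CPM against developmental time in hours for 6 members, 1 point for each of 39 single embryos, coloured by library pool; the vertical axes start at 0. ML040518a, ML020025a and ML23992a are low around 7 to 7.5 h, ML052315a around 8 to 9 h and ML035011a at 4 to 5 h, and each is higher again at 20 h.

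A lowest block other than 7 to 7.5 h was found in 19 members. ML052315a was the most abundant of those lowest at 8 to 9 h, where 6 embryos held 49.7 to 118 CPM with a median of 81.6. Its embryos of 0 to 1 h held 308, 377, 271 and 308 CPM and those of 20 h 222 and 358 CPM, all above the 8 to 9 h embryos. ML33725a, also lowest then, ranged from 18.8 to 32.1 CPM (median 26.4) in 6 embryos, below its 99.9 to 134 CPM of 0 to 1 h and its 52.0 and 75.1 CPM of 20 h. ML21891a and ML01823a were lowest at 5.5 to 6.5 h, with block levels of 10.9 and 11.0 CPM. Their late levels were 30.1 CPM at 20 h and 27.5 CPM at 11 to 13 h, against 56.4 and 55.0 CPM at 0 to 1 h. For ML01823a the 5.5 h replicate 2 embryo, 1 of the shallow libraries, held 30.3 CPM, above the lowest late embryo at 24.3 CPM.

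The single member lowest at 4 to 5 h, ML035011a, had a course of its own. The 2 embryos of 0 h held 134 and 157 CPM, and the 2 embryos of 1 h 5.51 and 24.2 CPM. Its 6 embryos of 4 to 5 h lay between 1.13 and 15.7 CPM (median 6.91), and its 6 embryos of 11 to 13 h between 113 and 251 CPM (median 133). Its 0 to 1 h level therefore came from the 0 h embryos, and the embryos of 1 h overlapped those of 4 to 5 h. At 1.89 times the 0 to 1 h level, its late level was the highest of any member relative to the start.

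By depth, ML234560a was the extreme, with 213, 258, 264 and 216 CPM at 0 to 1 h, 7.94, 8.42, 5.10 and 5.89 CPM at 7 to 7.5 h, and 145 and 126 CPM at 20 h. Its lowest embryo of 20 h stood 14.9 times above its highest of 7 to 7.5 h. The next deepest members were ML01791a, at 0.0535 times its start, ML040518a, and ML04358a, at 0.0761 times. ML01791a held 66.6, 81.2, 68.1 and 68.7 CPM at 0 to 1 h, 5.78, 2.22, 6.56 and 4.28 CPM at 7 to 7.5 h, and 31.2 and 43.9 CPM at 20 h. ML04358a was a low gene, with 16.5 to 44.6 CPM at 0 to 1 h, no read in 2 of the 4 embryos of 7 to 7.5 h, and 11.1 and 20.8 CPM at 20 h. ML024915a, lowest at 8 to 9 h, went from 15.0 to 28.3 CPM at 0 to 1 h to between 0 and 4.26 CPM in 6 embryos, and had 13.4 and 14.1 CPM at 20 h. In all, 13 members had a lowest block at 1/8 or less of their start.

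Clear gaps from the embryos of 7 to 7.5 h to those of 0 to 1 h and of 20 h were also seen in some other members. ML033238a held 25.8, 24.3, 20.5 and 26.3 CPM at 0 to 1 h, 2.89, 4.43, 1.46 and 0.536 CPM at 7 to 7.5 h, and 20.1 CPM in both embryos of 20 h. ML23992a held 70.8, 70.5, 52.3 and 50.5 CPM at 0 to 1 h, 9.39, 3.55, 6.56 and 11.8 CPM at 7 to 7.5 h, and 46.1 and 52.8 CPM at 20 h. ML20167a held 31.2, 24.3, 30.3 and 35.4 CPM, then 2.17, 4.21, 2.92 and 3.21 CPM, then 16.3 and 42.4 CPM in the same blocks. In these 3 the lower of the 2 gaps was 4.53-fold, 3.91-fold and 3.88-fold. The 20 h embryos of ML20167a differed more from each other than those of the other two. At 11 to 13 h, single embryos of ML033238a ranged from 0 to 23.3 CPM and those of ML20167a from 4.05 to 9.79 CPM. Both thus overlapped their embryos of 7 to 7.5 h. ML23992a, at 23.8 CPM or more at 11 to 13 h, did not.

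By the order of their block levels, the course of 13 members was not a single dip. They were lower at 2 to 3 h than at 0 to 1 h, higher again at 4 to 5 h, lower at 7 to 7.5 h than at 5.5 to 6.5 h, higher again at 8 to 9 h, lower at 11 to 13 h and higher again at 20 h. The same order of blocks was found in 338 of the 3941 genes of at least 20 CPM (8.58%). The rule for members fixes part of this order, such as the low at 7 to 7.5 h, so nothing is read from a comparison of these counts. For ML10423a the block levels were 568, 147, 404, 455, 138, 308, 187 and 354 CPM from 0 to 1 h to 20 h. For ML190420a they were 154, 41.5, 92.1, 157, 33.1, 104, 81.0 and 146 CPM. The level of ML190420a at 5.5 to 6.5 h was thus as high as at the start. ML234560a, ML040519a, ML01791a, ML173718a, ML50181a, ML167022a, ML128221a, ML20167a, ML04469a, ML04358a and ML033238a were the other members of this kind. For these members the wording of a dip and a return describes the lowest block and the late level, not the whole course. The order asked for no size of step and no gap between embryos, and some steps were small. ML128221a stood at 19.3 CPM at 8 to 9 h and at 18.7 CPM at 11 to 13 h. ML04358a stood at 4.87 CPM at 2 to 3 h and at 5.71 CPM at 4 to 5 h. Its 2 embryos of 8 h held 6.27 and 53.0 CPM.

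**Figure D3:**
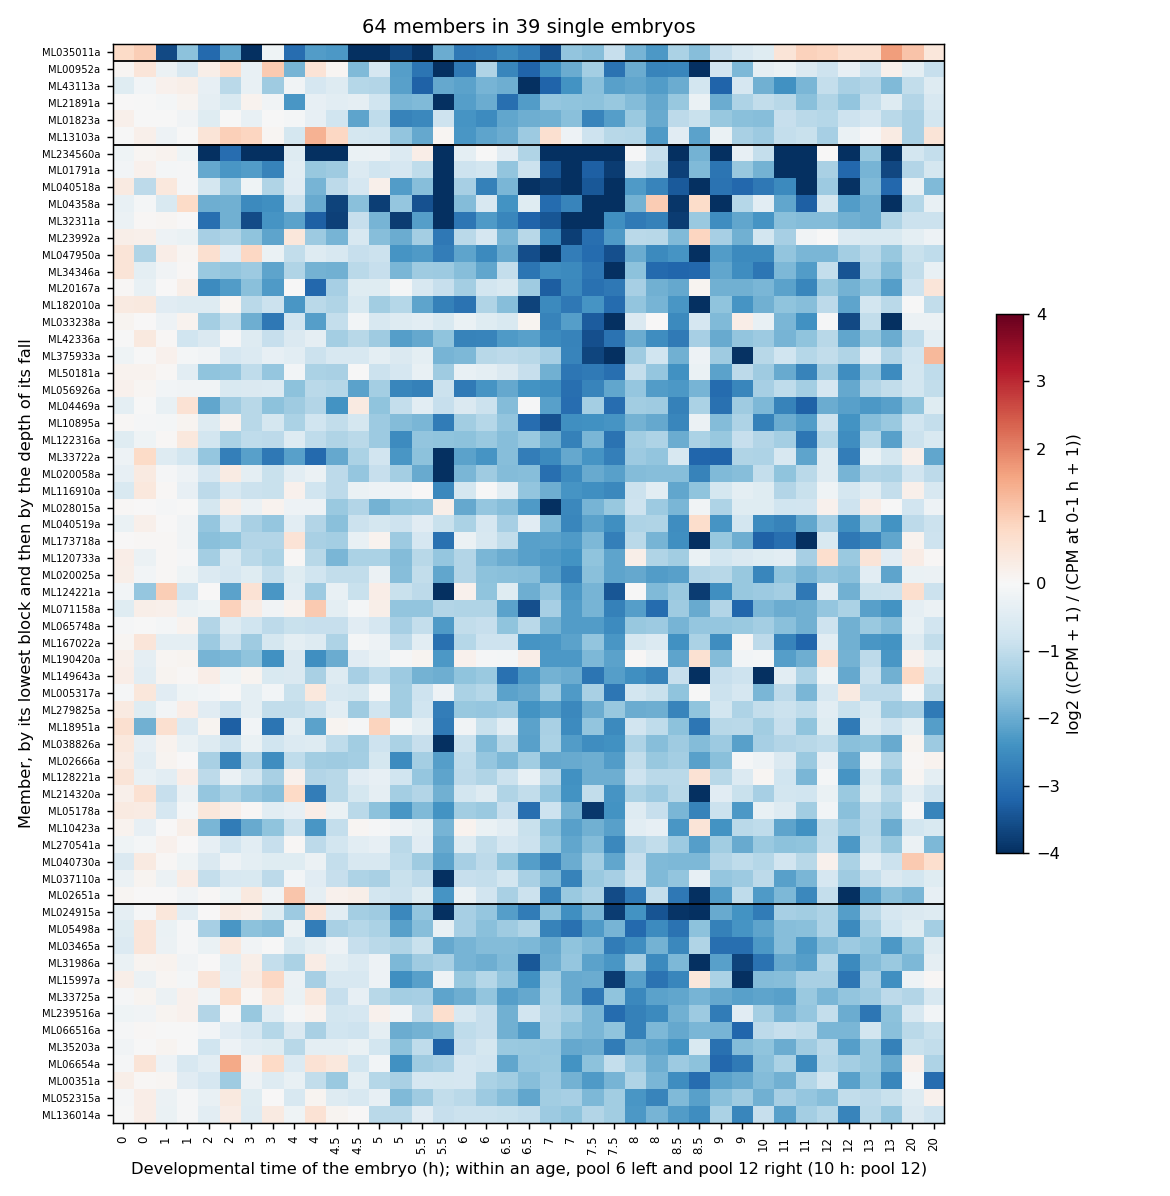
Level of the 64 members (rows, by lowest block and depth) in 39 single embryos (columns, by age, with pool 6 to the left of pool 12 within an age), as log2 of CPM plus 1 over the 0 to 1 h level plus 1. The columns of 7 and 7.5 h hold low values for the 45 members lowest in that block, and single embryos of several other ages differ from the embryo beside them.

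Block levels hid large differences between embryos of the same age in ML234560a. At 7 of the 19 ages with 2 usable embryos its levels were over 4-fold apart, with 169 and 8.78 CPM at 4 h, 10.8 and 201 CPM at 4.5 h, 288 and 3.79 CPM at 5.5 h, 4.03 and 64.1 CPM at 8.5 h, 10.7 and 192 CPM at 9 h, 246 and 1.57 CPM at 12 h, and 83.1 and 6.22 CPM at 13 h (replicate 1 first). The higher embryo was replicate 1 at 4, 5.5, 12 and 13 h and replicate 2 at 4.5, 8.5 and 9 h, so that the library pools do not separate high from low. At the other ages the 2 embryos were closer, both at 105 to 264 CPM at 0, 1, 5, 6, 6.5, 8 and 20 h and both at 4.50 to 28.3 CPM at 2, 3, 7, 7.5 and 11 h. Over all 39 embryos, put in order of their level, 16 lay between 1.57 and 12.8 CPM, 1 at 28.3 CPM and 22 between 64.1 and 288 CPM. The 2 gaps around the single embryo at 28.3 CPM were 2.22-fold and 2.26-fold. A gap of 2.41-fold between 1.57 and 3.79 CPM rested on 3 reads and 1 read. At 4, 5.5 and 8.5 h, 1 of the 2 embryos was a library of under 600000 reads. Gaps of over 4-fold were not limited to this gene. Among others, ML040518a and ML04358a had them at 6 ages each, ML18951a at 5, and ML124221a and ML33722a at 4 each. In ML04358a some of these gaps rested on few or no reads in the lower embryo.

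Which other members moved with ML234560a between same-age embryos was looked at in 2 ways, both devised after its values were seen. The first asked only which embryo was the higher one. Here 2 of the 63 other members, ML040730a (17 ages) and ML167022a (16 ages), were higher in the same embryo as ML234560a at 16 or more of the 19 ages, as were 0.418% of the 9575 other genes tested and 0.66% of the 3940 other genes of at least 20 CPM. The median was 11 ages for members and 10 for the genes tested. The second was chosen after these counts, with the values of the members in view, and was limited to the 7 ages at which ML234560a itself was over 4-fold apart. By it, 4 of the 63 other members (ML190420a, ML01791a, ML50181a and ML04358a) were at least 2-fold higher in the same embryo at 6 or more of the 7 ages, as were 21 of the 3940 other genes of at least 20 CPM (0.533%). Some of these gaps lay at the floor of the counts. ML04358a had 2 and 0 reads at 5.5 h, 0 and 11 at 9 h and 9 and 1 at 13 h (replicate 1 first). ML01791a had 50 and 0 reads at 5.5 h. The ages 4, 5.5 and 8.5 h each include a library of under 600000 reads. The 2 measures picked no member in common, and the second was shaped to the pattern it counts, so it is a description of these 4 genes and supports nothing further.

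At 8.5 h, ML190420a held 34.7 CPM in replicate 1 and 236 CPM in replicate 2. At 12 h it held 230 CPM in replicate 1 and 40.3 CPM in replicate 2. ML01791a held 4.44 and 20.4 CPM at 8.5 h and 28.7 and 7.32 CPM at 12 h in the same order. In both genes the higher embryo was that with more ML234560a. These 2 ages are among the 7 on which both genes were picked, so this order follows from the choice and is no further result. The 20.4 CPM of ML01791a in the shallow 8.5 h replicate 2 rested on 7 reads.

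**Figure D4:**
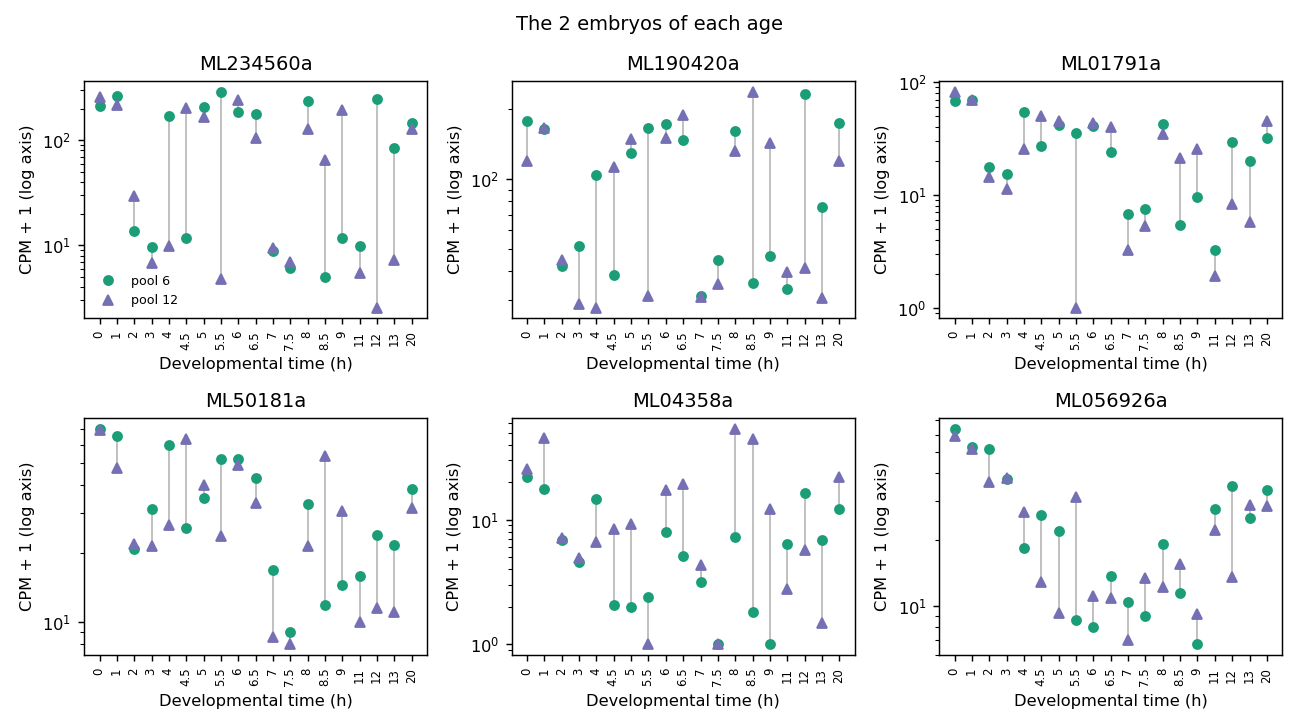
CPM plus 1 on a log axis in the 2 embryos of each age, joined by a line, for ML234560a, the 4 members picked on the 7 ages and ML056926a for contrast. ML234560a reaches 246 CPM in one embryo of 12 h and 1.57 CPM in the other, and ML190420a 230 and 40.3 CPM in the same embryos.

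Over the members as a whole, the median absolute log2 difference between the 2 embryos of an age, computed on CPM plus 1 and taken as the median over 19 ages, was 0.57. It was 0.47 for the 3941 genes of at least 20 CPM. Among members it ran from 0.22 in ML066516a to 1.51 in ML124221a. ML040518a, the most abundant member, was among the most variable, at 1.38.

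Most members were back late. Counting the first block after the lowest at 1/2 or more of the 0 to 1 h level, 1 member was back at 7 to 7.5 h, 8 at 8 to 9 h, 14 at 11 to 13 h and 41 at 20 h, where the level rests on 2 embryos. In 57 of the 64 members the 20 h block was higher than the 11 to 13 h block, as it was in 49.7% of the 3941 genes. The exceptions were ML279825a, ML18951a, ML035011a, ML028015a, ML01823a, ML00952a and ML05178a. ML279825a, for example, had 75.4 CPM at 11 to 13 h and 35.3 CPM at 20 h, against 134 CPM at the start. At an earlier point, 49 of the 64 members were higher at 8 to 9 h than at 7 to 7.5 h. For the 45 members lowest at 7 to 7.5 h, which cannot be lower at 8 to 9 h, the median ratio of these 2 blocks was 1.94.

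The late level exceeded the level of 0 to 1 h in 7 members. They were ML035011a, ML040730a, ML375933a, ML149643a, ML120733a, ML02666a and ML124221a, at 1.89, 1.83, 1.52, 1.17, 1.14, 1.07 and 1.07 times. ML040730a held 68.4, 132, 107 and 91.3 CPM at 0 to 1 h and 212 and 166 CPM at 20 h, so that its embryos of 20 h lay above all those of the start. The embryos of ML375933a at 20 h were 17.1 and 75.1 CPM, on both sides of its 27.0 to 33.8 CPM of 0 to 1 h. This count depends on the scaling of the libraries, with 15 members above the start under TMM-scaled library sizes and 20 under median-of-ratios sizes.

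The embryos of 10 h took no part in the selection, and 1 of them, replicate 2, was deep enough to read. It lay above the 7 to 7.5 h block in 51 of the 64 members, beside 29.4% of the 3941 genes, and above the 8 to 9 h block in 41 members, beside 27.5%. Both of these blocks were used to select the members as low, so that neither count is free of the rule. At 10 h, 16 members (25%) were at 1/2 or more of their 0 to 1 h level, against 45% of the 3941 genes. The median log2 level relative to 0 to 1 h was -1.47 for members and -1.13 for the 3941 genes, so that members were below genes in general in that embryo. In that embryo ML190420a held 145 CPM (95% Poisson interval 128 to 163, counting error only) and ML234560a 124 CPM (109 to 141), close to their levels of 20 h. ML020025a held 67.4 CPM (56.3 to 80.0), below the 84.5 CPM of its own lowest block but within the 63.8 to 130 CPM of that block's single embryos. Same-age embryos of the first 2 genes lay far apart at nearby ages. At 12 h, replicates 1 and 2 held 230 and 40.3 CPM of ML190420a and 246 and 1.57 CPM of ML234560a. With 1 embryo there is no replicate error, so the levels of 10 h do not place these genes on their courses.

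The members were a minority of the genes that became scarce. Of the 3941 genes of at least 20 CPM, 374 were at 1/4 or less of their start in a block between 4 and 9 h, and the members were 17.1% of these. In 290 others both late blocks stayed under 1/2 of the 0 to 1 h level, in 3 the late level was over 2 times the start, and 17 met neither description. Up to 7 to 7.5 h the 290 had a similar median course, at -0.49, -0.70, -1.33 and -2.21 on the log2 scale from 2 to 3 h to 7 to 7.5 h. Their medians then were -2.22 at 8 to 9 h, -2.61 at 11 to 13 h and -2.17 at 20 h. Their selection asked for late levels under 1/2, that is, below -1 on this scale. The lowest of the middle blocks was 7 to 7.5 h in 47.2% of the 290 and 8 to 9 h in 51.4%, and it was 7 to 7.5 h in 70.3% of the members. The groups were split by their late levels, so this difference is not free of the selection. In the 10 h embryo, 3.45% of the 290 were at 1/2 or more of the start.

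Whether a member differed between the library pools was tested, since the rule adds both pools together. In edgeR's quasi-likelihood test with age and pool in the model and Benjamini-Hochberg adjustment over 9576 genes, calls required an adjusted p below 0.05 and a log2 difference of 1 or more in either direction. By this, 456 genes (4.76%) were called, 436 of them higher in pool 6. Among the 64 members 3 were called, a share near that of all genes, and all 3 were higher in pool 6. ML040518a differed by a log2 fold change of -1.08 (pool 12 minus pool 6) and was higher in the pool 6 embryo at 18 of 19 ages. ML18951a differed by -1.15, with 18 of 19 ages, and ML124221a by -1.19, with 17 of 19. ML18951a held 177 and 181 CPM in pool 6 and 29.7 and 77.8 CPM in pool 12 at 0 to 1 h. ML124221a held 87.1 and 190 CPM in pool 6 and 31.7 and 54.2 CPM in pool 12 then. Without the 4 libraries of under 600000 reads the log2 fold change of ML040518a was -0.97, and it was not called.

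Applied to each pool alone, with 1 embryo at each age, the rule selected 74 genes in pool 6 and 77 in pool 12. The 2 lists shared 17 genes, which is 23.0% of the first and 22.1% of the second, and 15 of the 17 were members. Of the 64 members, 45 were at 1/4 or less of their start in pool 6 and 55 in pool 12, in the block that is lowest for both pools together. The larger late block was at 1/2 or more of the start in 50 members in pool 6 and in 49 in pool 12. It lay above the lowest block in 62 members in pool 6 and in 63 in pool 12. The direction of the dip and of the return was thus the same in both pools for nearly all members, while the limits of 1/4 and 1/2 were often missed in one of them. Both pools entered the selection of the members, so this agreement is not independent of it.

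**Figure D5:**
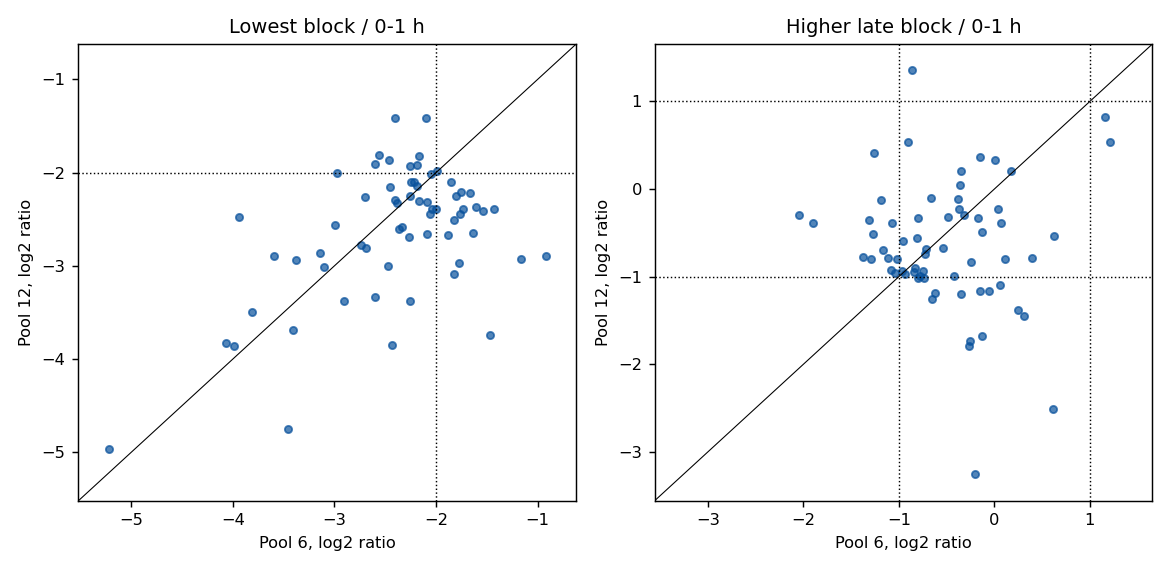
Log2 ratio of the lowest block to 0 to 1 h, and of the larger late block to 0 to 1 h, for each of the 64 members, with pool 6 on the horizontal and pool 12 on the vertical axis, a diagonal of equal ratios and dotted lines at the limits of the rule. Of the members, 45 reached 1/4 or less in pool 6 and 55 in pool 12, and points scatter about the diagonal.

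The order of ages inside a block was not used by the rule either, and 7 steps were tested, from 0 to 1 h, 2 to 3 h, 4 to 5 h, 5.5 to 6.5 h, 7 to 7.5 h, 8 to 9 h and 11 to 13 h. With 2 embryos an age and p-values adjusted over all genes and steps together, edgeR's quasi-likelihood test called 10 genes (0.104%) and 0 members. With the library pool as a block it called 37 genes and 0 members. DESeq2 called 0 members as well. The unadjusted p was below 0.05 in 24 of the 448 steps of members (5.36%), in 21 members, beside 4.65% of the steps of all genes. The smallest was that of ML035011a from 0 to 1 h, with a log2 fold change of -3.37 ± 0.98 (SE) and an adjusted p of 0.530 by edgeR's quasi-likelihood test. With 2 embryos an age, the count of 0 does not show that members were steady within blocks.

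The limits of the rule cut through a continuum. Just inside the limit of 1/4 were ML02651a, ML037110a and ML040730a, with lowest blocks at 0.2499, 0.2478 and 0.2477 times the start. Just outside were ML04476a, ML239521a and ML018012a, at 0.2503, 0.2511 and 0.2533 times, which met every other condition. For ML02651a this is a block level of 5.91 CPM against 23.7 CPM, and its embryos of 7 to 7.5 h, at 1.07 to 9.47 CPM, overlapped the lower of its 20 h embryos, at 5.94 CPM. A gene near a limit can change sides with 1 embryo. Leaving out 1 embryo at a time, the set had 56 to 71 genes, and 18 of the 64 members stayed in it whichever embryo was left out. With TMM-scaled library sizes the median log2 level of the members at 7 to 7.5 h was -1.97, against -0.35 for the 3941 genes, and the rule then selected 50 genes, 34 of them members. With the mean of single-embryo levels, TMM-scaled or median-of-ratios library sizes, 32 members stayed in all 3 sets. Of the 64, 11 stayed both with any 1 embryo left out and in these 3 sets. The 7 of them that the rule also selected in each library pool alone were ML00952a, ML028015a, ML116910a, ML120733a, ML20167a, ML23992a and ML32311a.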

How the data were processed

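The authors deposited whole-number counts of reads per gene model and embryo. Per the labels' protocols, RNA of single embryos was amplified by CEL-Seq with barcodes that hold a molecular identifier. Merging of reads that share an identifier is not described in these sources, so counts are treated as reads, and intervals cover counting error only. Tools listed in the submitters' processing notes are HTSeq 0.5.4p3, Bowtie2 2.1.0 and CASAVA 1.8. Build, annotation and strand setting are not given in these sources, so values of near-identical or overlapping genes are uncertain. The authors' sheet of samples, deposited with other values that are no measurements, gives each embryo's library index, 6 or 12. Replicates are numbered in accession order, and by this sheet replicate 1 is always in pool 6 and replicate 2 in pool 12. Pool differences correlated across genes with a median of 0.10 (-0.228 to 0.522) between 171 pairs of ages, and 87 were over 0.1. No label says that embryos were separate spawnings, so p-values set a difference against the spread between these embryos only. In the steps, whose main fit had no pool term, that spread includes differences between the pools.

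From the counts, 5 totals that name no gene were left out of all sums. Of an embryo's reads, a median of 49.2% were not aligned and 30.8% fell in gene models. The IDs matched 0 of the 19625 genes of the RefSeq table (assembly crg_Mlei_v2), so no sequence or function is given. Block levels and the rule are as described above. The pool test and the steps used edgeR 4.0.16 in R 4.3.3 on all 40 embryos, with filterByExpr (count minimum 10, 20 ages as groups), TMM scaling and a quasi-likelihood F test. DESeq2 1.42.0 was an alternative. Same-age differences used log2 of CPM plus 1. Calls with each embryo left out reused the genes and the dispersion trend of the full fit. The code was tested on simulated counts at 2 spreads. At the spread closer to these data, the test of steps recovered a small minority of the 4-fold changes put in, and the pool test all of them.

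Genes were named by rule. These were the 10 highest at 0 to 1 h, the 6 deepest, the 2 highest for each lowest block, the 5 with the largest gaps between embryos, members called in a test, and the 3 on each side of the limit of 1/4. Other IDs were named after their values were seen. The members and lists were chosen with earlier results of these data known. The comparison with genes that stayed low, the alternating order of blocks, the same-age spread, the shares at 10 h and both measures of likeness to ML234560a were also chosen after the values were seen.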

Additional observations from a re-analysis of the deposited data

Results flagged for a closer look

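Among the 59 groups of 4 or 6 embryos examined in the named genes, 3 held a single embryo far from the rest by Dixon's 95% criterion, which chance meets in about 1 group in 20. ML035011a had 251 CPM in 13 h replicate 2, with the next highest embryo of 11 to 13 h at 149 CPM. ML01791a had 81.2 CPM in 0 h replicate 2, with the next highest embryo of 0 to 1 h at 68.7 CPM. ML01823a had 30.3 CPM in 5.5 h replicate 2, a library of 264033 reads, with the next highest embryo of 5.5 to 6.5 h at 13.3 CPM.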

How the results depend on the processing

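The number of members was 64. It was 58 with the mean of single-embryo CPM (50 of the 64 among them), 50 with TMM-scaled library sizes (34) and 80 with median-of-ratios sizes (49). It was 65 without the libraries of under 600000 reads, 61 with the 10 h embryos in the 11 to 13 h block, and 82 asking for 10 CPM. Asking for 50 CPM gave 40 members, a limit of 1/3 gave 142 and a limit of 1/8 gave 13. Leaving out 1 embryo gave 56 to 71, with at least 47 shared. Median levels at 20 h relative to 0 to 1 h moved from -0.67 to -0.45 under TMM and -0.31 under median-of-ratios sizes for members, and from -0.93 to -0.71 and -0.57 for the 3941 genes. Of 448 alternative values of the lowest or late level of named genes, 426 stayed within 1 SD of the replicates and 22 did not. The late log2 level of ML020025a went from -0.25 to 0.10 under median-of-ratios sizes.

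In the pool test, 456 genes were called with TMM, 774 with total counts, 652 by DESeq2 and 357 to 537 with 1 embryo left out. Members called were 2 to 4 throughout. In the steps, 10 genes were called with TMM, 91 by DESeq2, 373 with no filter on low counts, 16 without both 10 h embryos and 2 to 48 with 1 embryo left out, fewest without 4 h replicate 2 and most without 5 h replicate 1. Members called were 0 in each of these except with no filter, where 2 were, and 0 with any 1 embryo left out. The cause was not tested. The library pool as a replicate block, which follows the replicate number, gave 37 genes called in the steps. Members called were 0 with and without the block.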
